A study of Mus musculus with 24 samples.

Results

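Large liver tumors of DEN-injected wild-type mice were compared with the livers of wild-type mice that had received the same carcinogen. DEN is a nitrosamine that hepatocytes convert into a DNA-alkylating agent, and a single dose given to a young male mouse leaves foci, nodules and later tumors in the liver. Because both groups carried the DEN exposure, this comparison set the tumor tissue against carcinogen-exposed liver rather than against unexposed liver. Of the 24 arrays of the series, 3 held wild-type DEN tumors and 6 held DEN-treated wild-type livers, so 9 arrays entered the contrast itself. The mice were male C57BL/6J animals that were injected once at 15 days of age with 25 mg/kg DEN and were killed at 9 months. According to the study, the pieces of DEN-treated liver held nodular as well as non-tumorous tissue, which limits them as a model of tumor-free liver, and large tumors were frozen separately. A further 3 sets of arrays were used for side-by-side values, namely 2 Chop-/- tumors, 7 DEN-treated Chop-/- livers and 3 livers of wild-type mice injected with PBS in place of DEN. Chop-/- mice lack most of the coding sequence of Ddit3, the gene for CHOP, in every cell. The labels do not state that each array came from a separate animal, so the p-values measure the spread between these samples.

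Hepatocellular tumors usually keep part of the hepatocyte program while they divide, switch on genes of the fetal liver and lose functions that normal liver divides between the periportal and the perivenous ends of the lobule. CHOP is a transcription factor of the integrated stress response, in which phosphorylation of eIF2α lowers general translation and raises ATF4 and its targets. It is called an ER stress factor because the PERK branch of the unfolded protein response feeds into the same pathway.

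RNA was hybridized to Illumina mouse bead arrays, and all levels below are normalized log2 intensities, so that a difference of 1 is a 2-fold difference. A level measures 1 probe and cannot be set against the level of another probe. Each array is named by its letter and number, and the letter (A, B or C) marks a set of 8 arrays: tumors A_04 and A_08 were in set A with livers A_02 and A_03, tumor B_12 was in set B with livers B_10 and B_11, and livers C_18 and C_19 were in set C. Between 9624 and 11123 of the 25697 probes were detected above the negative controls on the 9 arrays. Pearson correlations over the genes tested were 0.952 to 0.982 among the tumors, 0.974 to 0.987 among the DEN-treated livers and 0.915 to 0.963 between a tumor and a liver. One array outside the contrast stood apart: the DEN-treated Chop-/- liver B_15 correlated at 0.965 to 0.977 with the other 6 livers of its group, which correlated at 0.979 to 0.992 with each other. That liver exceeded all the other 6 at 10 of the 13 measured genes of the fetal liver and liver tumor list, and it adds to the spread that the 24-array model estimates, so the main counts of calls over all genes are also given without it.

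Of 8969 genes tested, 1086 (12.1%) were higher and 917 (10.2%) were lower in wild-type tumors than in DEN-treated wild-type livers at an adjusted p under 0.05 by limma. The counts of each list below are to be read beside these shares. The median difference over all genes was -0.01. Among the called genes, 488 were more than 2-fold higher and 302 more than 2-fold lower, while 30 were more than 8-fold higher and 13 more than 8-fold lower. The 3 tumors lay above all 6 livers for 1098 genes (12.2%) and below all 6 livers for 913 genes (10.2%), and 888 of the genes called higher and 704 of those called lower were among these. The study's cutoffs, more than 1.5-fold with p under 0.05, were also applied, here with an unadjusted p. They were met by fewer genes, 1038 (11.6%) in the upward and 787 (8.77%) in the downward direction. By contrast, no gene passed between the DEN-treated and the PBS-injected wild-type livers, where 246 genes had an unadjusted p under 0.05. Without the Chop-/- liver B_15 in the model, 3 genes passed there, Akr1c18, Tff3 and Tspan8, which were named after their values were seen.

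The 3 tumors did not depart from the livers equally. Over the genes called higher, the median level relative to the liver mean was 0.81 in A_04, 0.89 in A_08 and 1.04 in B_12, and B_12 was the farthest from the livers for 53.2% of them. Over the genes called lower, the medians were -0.65 in A_04, -0.72 in A_08 and -0.98 in B_12, and B_12 was the farthest for 62.2%. Without tumor B_12 the counts were 777 higher and 586 lower.

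The genes with the largest increases were a mixed group of secreted, surface and metabolic proteins. Wfdc15b, which encodes a small whey acidic protein-domain protein, had 9.96, 11.60 and 11.82 in tumors A_04, A_08 and B_12, against a lowest of 5.16, a median of 6.63 and a highest of 8.38 in the DEN-treated livers. Igfbp1, a secreted binding protein of insulin-like growth factors, had 10.28, 10.13 and 12.17 in the tumors, against 6.24, 6.73 and 6.99 as lowest, median and highest in the livers. Psat1, an enzyme of serine synthesis, had 9.05, 8.68 and 11.11 in the tumors, against 4.88, 5.73 and 6.47 in the livers. No tumor overlapped a liver for any of these genes, and the fold differences were 22.0 for Wfdc15b (adjusted p = 0.000742), 18.5 for Igfbp1 (adjusted p = 0.00053) and 14.8 for Psat1 (adjusted p = 0.000118). Klrb1b, a lectin-like receptor gene known from natural killer cells, was 15.4-fold higher with 9.13, 8.65 and 10.08 in the tumors. This probe differed by 3.94, and the other probes of Klrb1b by 3.88, 3.40 and 0.85. Cd63, a tetraspanin of lysosomes and exosomes, was 13.2-fold higher, and its 3 tumor values lay within 11.58 to 11.87. Neurl1a, an E3 ubiquitin ligase, was higher by 3.58 on the log2 scale, and Erich4 by 3.44. Prom2, a pentaspan membrane protein, and Gldn, a cell adhesion protein of the nerve, were 10.5- and 10.1-fold higher. The other probe of Prom2 differed by -0.28, so the increase of Prom2 was seen with its brighter probe only. Apoa4, an apolipoprotein of lipid absorption and transport, was 9.12-fold higher, with 13.74, 14.37 and 14.86 in the tumors against 10.41 to 11.67 in the livers.

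The genes with the largest decreases included several enzymes made by hepatocytes. Serpina4-ps1, a serpin pseudogene, had 8.89, 6.64 and 5.56 in tumors A_04, A_08 and B_12, against a lowest of 9.27, a median of 11.77 and a highest of 12.01 in the livers, which made it 16.3-fold lower (adjusted p = 0.000104). Nnmt, which methylates nicotinamide, had 9.72, 7.57 and 8.17 in the tumors, against 11.73, 12.13 and 12.50 in the livers (12.6-fold lower). Ces3b, a hepatic carboxylesterase, had 10.17, 9.16 and 6.82 in the tumors, against 11.54, 12.41 and 12.94 in the livers (a difference of -3.59). In each of the 3 genes tumor A_04 was the nearest to the livers. Nat8, an N-acetyltransferase, was 10.9-fold lower, Etnppl, which breaks down phosphoethanolamine, 9.53-fold lower, and Hpd, an enzyme of tyrosine degradation, 8.29-fold lower. Plekhb1, which encodes a pleckstrin homology domain protein, was 8.42-fold lower and Sult2a8, a hepatic sulfotransferase, 8.19-fold lower. Mfsd2a, a transporter of lysophospholipids, was lower in every tumor at 6.61, 6.59 and 6.81, against 9.07, 9.44 and 11.14 in the livers (adjusted p = 0.00966).

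Genes of the fetal liver and of liver tumors were high in all 3 tumors. Of the 13 measured members of that list, 7 were higher and none lower, with a median difference of 2.60 (2.80 with Scd2 at its bound and the 2 members above background in neither group left out), against 12.1% of all genes called higher. Igdcc4, an immunoglobulin-family surface protein of fetal liver, had 9.76, 9.81 and 10.48 in tumors A_04, A_08 and B_12, against a lowest of 4.72, a median of 5.51 and a highest of 6.45 in the livers. It was the gene with the largest difference of the contrast, 4.46 (SE 0.62, adjusted p = 2.02e-05), and was detected in 3 of the 6 livers. Spink1, a trypsin inhibitor, had 9.78, 10.58 and 12.97 in the tumors, against 5.80, 6.88 and 8.38 in the livers (16.1-fold). Akr1c18, which inactivates progesterone, had 11.42, 10.77 and 13.44 in the tumors, against 7.57, 8.32 and 9.09 in the livers (11.7-fold). Ly6d, a lipid-anchored surface protein, was 11.3-fold higher, with B_12 at 12.14 and the other two tumors at 9.08 and 8.42. Golm1, a Golgi protein used as a serum marker of hepatocellular carcinoma, was 6.94-fold higher, and Tff3, a trefoil peptide of mucosal epithelia, was 7.00-fold higher. Scd2, a fatty acid desaturase, was detected in all 3 tumors and in no DEN-treated liver and was at least 3.22-fold higher (adjusted p = 0.000244). For a gene not above background in a group, such a bound sets the mean of the bright group against the dimmest signal detected on each array of the other group, or the gene's own signal there where that was higher.

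Afp, the fetal serum albumin and the classical serum marker of liver cancer, had 9.12, 8.71 and 9.36 in the tumors, against 6.21, 6.39 and 7.04 in the livers. The 2 groups did not overlap, but the difference of 2.60 had an adjusted p of 0.0549. Without the Chop-/- liver B_15 its adjusted p was 0.000102, and Gpc3, an oncofetal proteoglycan, then passed too with a difference of 1.95 (adjusted p = 0.0303), so that 9 of the 13 members were higher. Gpc3 had 8.26, 8.20 and 11.44 in the tumors, against 6.15, 7.39 and 8.40 in the livers, and only tumor B_12 lay above every liver. The remaining 4 members did not pass either way: Akr1b8, an aldo-keto reductase (difference 0.77), Igf2, a fetal growth factor (0.88), and Cd24a, a surface glycoprotein of progenitor cells (0.17), and Bex1, a small adaptor protein (0.11), both of which were detected in no tumor and no liver. The Igf2 difference came from tumor A_04, at 8.46, while A_08 and B_12 had 5.78 and 5.49 against 5.15 to 6.45 in the livers. Tff3 and Akr1c18 differed by 3.66 and 3.86 between DEN-treated and PBS-injected wild-type livers, with means of 6.32 and 4.47 in the PBS-injected livers, and this passed only without the Chop-/- liver B_15. In bulk tissue, fewer cells of a type and less RNA per cell cannot be told apart, and this applies to every list below.

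The targeted pathway gene of the study, Ddit3, was higher in every tumor. It had 8.90, 8.64 and 8.37 in tumors A_04, A_08 and B_12, against a lowest of 6.09, a median of 6.51 and a highest of 6.90 in the DEN-treated livers, a 4.37-fold difference (2.13, SE 0.17, adjusted p = 8.43e-08). The tumors exceeded the highest liver by more than the whole range of the livers. In Chop-/- mice the same probe had 4.71 and 4.39 in the 2 tumors, against 4.37 to 4.64 in the DEN-treated livers, all below every wild-type array of the 2 wild-type groups, and the difference between the genotypes follows from the deletion. Of the 21 measured genes of the integrated stress response, 8 were higher and 1 was lower, and the median difference was 0.44 (0.31 with 3 genes at their bounds). Over all genes, 12.1% were higher and 10.2% lower. Nupr1, a stress-induced chromatin-associated protein, had 9.63, 10.22 and 9.16 in the tumors, against 5.45, 5.95 and 6.12 in the livers (13.5-fold, adjusted p = 2.96e-07). Atf3, a stress-induced repressor of the ATF family, had 8.67, 7.85 and 7.05 in the tumors and was detected in no DEN-treated liver, so it was at least 5.76-fold higher (adjusted p = 1.36e-07). Ddit4, an inhibitor of mTORC1, had 8.89, 9.09 and 9.00 in the tumors, against 5.51, 5.90 and 6.09 in the livers (8.79-fold). These 4 genes separated the groups by wide margins, and the order of the tumors was not the same for each of them.

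Fgf21, a hepatokine of fasting and stress, was 10.8-fold higher, with 10.48, 10.88 and 11.20 in the tumors against 6.03, 7.42 and 9.44 in the livers, where its spread was wide. Trib3, a pseudokinase that restrains ATF4 and CHOP, was detected in all 3 tumors and in no DEN-treated liver and was at least 1.24-fold higher (adjusted p = 0.000894). Aldh18a1, the first enzyme of proline synthesis, was 4.13-fold higher. The transfer RNA synthetases moved little, with a median difference of 0.09. Among them 4 of 16 were higher, beside 12.1% of all genes, and only 2 were without tumor A_08. Wars, the tryptophanyl-tRNA synthetase, had 8.19, 8.22 and 8.34 in the tumors, against 7.38, 7.73 and 8.09 in the livers, a 1.44-fold difference with an adjusted p of 0.0258. Its adjusted p was 0.0621 without tumor A_08, 0.106 without tumor B_12, 0.0517 without liver A_03 and 0.0585 without liver B_11.

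ER chaperones and ER-associated degradation genes, which answer to the other arms of the unfolded protein response, showed 3 of 17 members higher, beside 12.1% of all genes, and none lower, with a median difference of 0.30. Hspa5, the main ER chaperone BiP, had 9.02, 9.02 and 8.80 in the tumors, against 7.42, 7.94 and 8.64 in the livers, a difference of 0.94 with an adjusted p of 0.0592. Eif2ak3, which encodes the eIF2α kinase PERK, was 1.92-fold higher (adjusted p = 0.00633), with 9.10, 8.96 and 8.47 in the tumors against 7.59 to 8.36 in the livers.

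The promoters of 4 stress genes are shown because each holds the C/EBP-ATF response element, the composite site at which ATF4 and C/EBP-family proteins bind. Each window runs from 250 bases before the annotated gene start to 50 bases after it in RefSeq (GRCm38.p6), is written 5′ to 3′ on the strand of the gene, and has the letters TGATGNAA, on either strand, in capitals.
Nupr1, chr7:126625421-126625720, minus strand: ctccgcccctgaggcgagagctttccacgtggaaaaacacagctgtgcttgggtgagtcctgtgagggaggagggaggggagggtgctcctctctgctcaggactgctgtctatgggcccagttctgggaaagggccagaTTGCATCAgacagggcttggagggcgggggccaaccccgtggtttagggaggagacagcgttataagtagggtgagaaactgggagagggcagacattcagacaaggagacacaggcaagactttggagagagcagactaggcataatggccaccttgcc
Atf3, chr1:191183284-191183583, minus strand: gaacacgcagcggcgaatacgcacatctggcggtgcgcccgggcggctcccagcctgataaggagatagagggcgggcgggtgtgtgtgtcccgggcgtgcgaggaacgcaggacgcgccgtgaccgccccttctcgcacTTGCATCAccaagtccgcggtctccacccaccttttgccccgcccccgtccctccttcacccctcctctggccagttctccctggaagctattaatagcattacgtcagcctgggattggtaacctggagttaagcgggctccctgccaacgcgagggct
Fgf21, chr7:45615441-45615740, minus strand: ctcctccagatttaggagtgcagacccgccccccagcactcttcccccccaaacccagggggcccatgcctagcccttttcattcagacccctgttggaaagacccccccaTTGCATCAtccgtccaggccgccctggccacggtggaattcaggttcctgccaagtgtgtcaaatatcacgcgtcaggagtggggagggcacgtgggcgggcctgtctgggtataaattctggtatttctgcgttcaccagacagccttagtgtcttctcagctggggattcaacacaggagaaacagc
Trib3, chr2:152344011-152344310, minus strand: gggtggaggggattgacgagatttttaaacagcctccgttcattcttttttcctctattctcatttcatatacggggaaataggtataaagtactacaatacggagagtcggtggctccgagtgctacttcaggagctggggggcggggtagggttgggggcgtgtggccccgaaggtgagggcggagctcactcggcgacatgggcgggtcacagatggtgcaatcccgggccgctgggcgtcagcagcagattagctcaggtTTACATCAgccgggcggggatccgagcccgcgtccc
The element lay at position -110 in Nupr1 and in Atf3 and at position -139 in Fgf21, and all 3 read TTGCATCA on the strand of the gene, while Trib3 had TTACATCA, after its start. Of the 18 measured stress genes with a RefSeq window, 8 held the element (Atf3, Chac1, Fgf21, Herpud1, Nupr1, Slc7a11, Trib3 and Vldlr), against 3.07% of the 7322 tested genes with a window. Ddit3 and Ddit4 held none in this window. A match of letters is a description of the sequence and not evidence of binding.

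Of the 20 genes of the mitosis list on the array, 13 were detected on at least 2 of the 24 arrays and so were measured. All 13 were higher in the tumors, with a median difference of 1.92, also with 2 genes at their bounds, against 12.1% of all genes called higher. A gene dim in liver can meet the detection rule through tumors alone, so the share of 13 of 13 may partly follow from that rule. Prc1, which bundles the microtubules of the dividing spindle, had 9.13, 8.82 and 9.10 in tumors A_04, A_08 and B_12, against a lowest of 5.28, a median of 5.82 and a highest of 6.18 in the livers (9.23-fold, adjusted p = 6.78e-06). Cdc20, which switches on the ubiquitin ligase that starts anaphase, had 8.27, 8.15 and 7.95 in the tumors, against 5.24, 5.69 and 6.11 in the livers (5.52-fold). Cdk1, the mitotic kinase, had 6.95, 6.67 and 7.48 in the tumors, against 4.76, 4.83 and 5.43 in the livers, only 1 of which was detected. All 3 tumors were far above the livers and close to each other for these genes. Nusap1, Plk1 and Birc5, a spindle protein, a mitotic kinase and the survival protein survivin, were 5.31-, 5.03- and 4.16-fold higher. The median of the list relative to the liver mean was 1.88, 1.65 and 1.91 in the 3 tumors, against -0.24 to 0.23 in the 6 livers.

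Genes of DNA replication followed with smaller differences: 10 of 15 were higher and 1 was lower, with a median of 0.64. Uhrf1, which maintains DNA methylation at replication, was 4.83-fold higher, with 8.01, 7.31 and 7.56 in the tumors against 4.87, 5.52 and 5.69 in the livers. Mcm6, Mcm5 and Mcm2, subunits of the replicative helicase, were 3.40-, 2.83- and 2.66-fold higher. Of 11 cyclins and inhibitors of the G1 phase, 4 were higher, and 2 were without tumor B_12. Ccnd1, the cyclin that couples growth signals to the cycle, had 11.04, 11.26 and 10.99 in the tumors, against 8.82, 9.01 and 9.79 in the livers (3.73-fold, adjusted p = 8.86e-06). This probe differed by 1.90, and the other probes of Ccnd1 by 1.90 and 0.62. Cdkn1a, the inhibitor p21 that p53 controls, was higher as well, with 8.05, 8.77 and 10.66 in the tumors against 5.67, 6.82 and 7.32 in the livers (5.62-fold). B_12 was well above the other tumors. This probe of Cdkn1a differed by 2.49, and its other probes by 1.96 and 0.73. The p53 targets as a list had 4 of 19 members higher, and 2 without tumor B_12, with a median of 0.25. The share of all genes called higher was 12.1%.

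The promoters of 2 mitosis genes are shown because they hold the cell cycle homology region, the element through which the DREAM and B-Myb complexes act on genes of the G2 phase and mitosis. The letters TTTGAA, on either strand, are in capitals, and the windows are as above.
Cdc20, chr4:118437294-118437593, minus strand: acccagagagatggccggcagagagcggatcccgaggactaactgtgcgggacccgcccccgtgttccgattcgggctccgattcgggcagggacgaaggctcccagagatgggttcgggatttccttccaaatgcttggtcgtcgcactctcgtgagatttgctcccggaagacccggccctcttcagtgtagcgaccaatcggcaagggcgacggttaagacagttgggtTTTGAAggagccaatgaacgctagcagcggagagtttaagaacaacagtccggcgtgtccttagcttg
Cdk1, chr10:69352863-69353162, minus strand: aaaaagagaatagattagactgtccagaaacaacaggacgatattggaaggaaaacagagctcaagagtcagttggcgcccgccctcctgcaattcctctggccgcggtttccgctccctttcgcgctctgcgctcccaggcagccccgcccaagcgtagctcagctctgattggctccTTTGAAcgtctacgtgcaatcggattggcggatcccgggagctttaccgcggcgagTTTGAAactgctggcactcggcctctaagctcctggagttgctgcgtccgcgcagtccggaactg
Of the 11 mitosis genes with a window, 8 held these letters (Aurka, Cdc20, Cdk1, Cenpa, Kif11, Plk1, Prc1 and Top2a), against 14.6% of the 7322 tested genes. Cdc20 held the element once, at position -18, and Cdk1 held it 2 times.

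**Figure D1:**
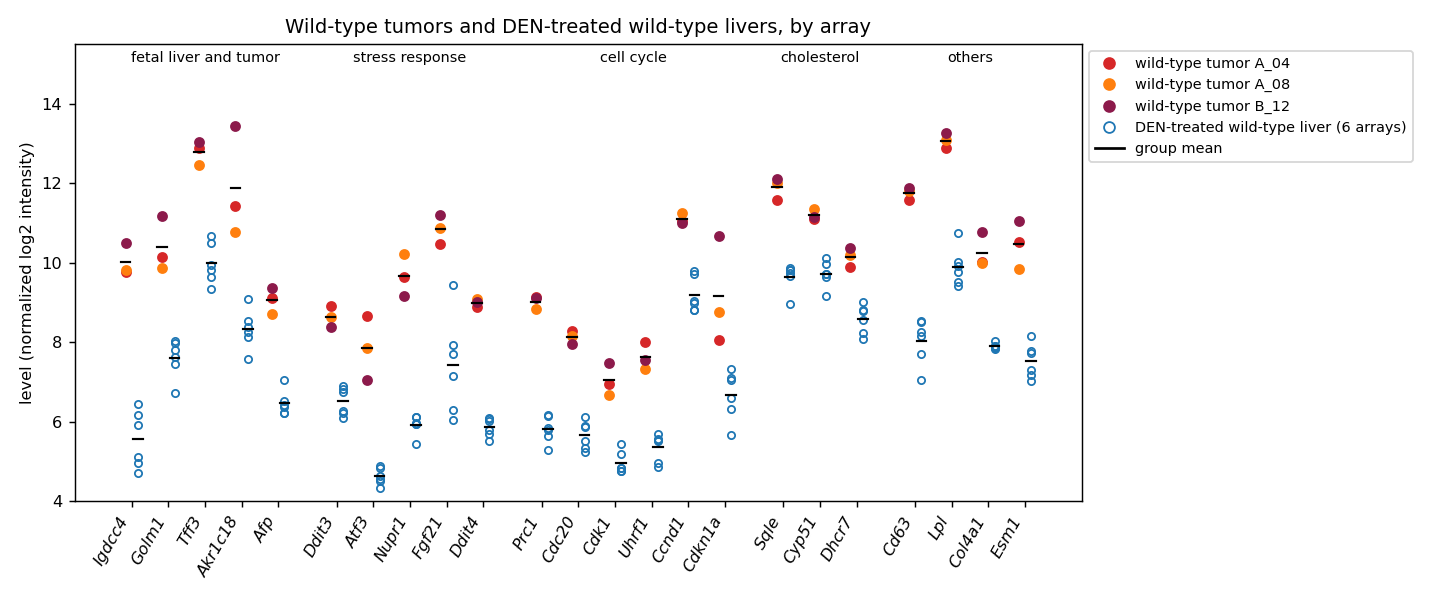
Level (normalized log2 intensity) of 23 genes in each wild-type tumor (filled points, left) and each DEN-treated wild-type liver (open points, right), with the mean of each group as a line. The 3 tumors lie above the 6 livers for all genes drawn, and the tumors differ most from each other for Akr1c18 and Cdkn1a; of these genes only Afp did not pass the test (adjusted p = 0.0549).

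Genes of the perivenous hepatocyte, which sits around the central vein and depends on Wnt and β-catenin, had the highest share of lower members among the lists examined. Of 21 measured members, 14 were lower and 2 higher, with a median difference of -1.57, against 10.2% of all genes called lower. Cyp2e1, the cytochrome P450 that activates DEN, had 13.51, 13.39 and 12.44 in tumors A_04, A_08 and B_12, against a lowest of 14.77, a median of 14.91 and a highest of 14.97 in the livers (3.45-fold lower, adjusted p = 2.54e-06). Cyp1a2, a P450 of drug and caffeine metabolism, had 10.55, 9.21 and 7.12 in the tumors, against 11.64, 12.02 and 12.36 in the livers (8.43-fold lower). Prodh, which starts proline breakdown, had 7.28, 6.60 and 5.16 in the tumors, against 9.08, 9.70 and 9.85 in the livers (9.63-fold lower). For each of them A_04 was nearest to the livers and B_12 farthest. Slc1a2, a glutamate transporter, was 7.42-fold lower, and Rgn, a calcium-binding lactonase, 4.64-fold lower. The Wnt targets Sp5, a transcription factor, and Notum, an extracellular Wnt inhibitor, were 4.77- and 4.34-fold lower. Glul, glutamine synthetase and the classical marker of the last hepatocytes before the central vein, was singled out after its values were seen. It had 8.52, 7.25 and 6.29 in the tumors, against 8.52, 8.92 and 9.35 in the livers, and its difference of -1.57 (adjusted p = 0.00175) was -1.04 without tumor B_12. Ctnnb1, the gene of β-catenin, was by contrast 1.63-fold higher (adjusted p = 0.00153), with 12.11, 11.91 and 12.16 in the tumors against 11.05 to 11.57 in the livers.

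The median of the perivenous list relative to the liver mean was -0.89, -1.42 and -2.46 in tumors A_04, A_08 and B_12, against -0.30 to 0.27 in the 6 livers. The periportal list, which includes the urea cycle, fell as well, with a median of -0.78. Among its 15 members 8 were lower, beside 10.2% of all genes, and 1 was higher, and 5 were lower without tumor A_08. Cyp2f2, the standard periportal P450, had 12.79, 11.47 and 10.85 in the tumors, against 13.34, 13.71 and 14.01 in the livers (3.99-fold lower). Otc, which makes citrulline in the urea cycle, had 8.68, 8.54 and 6.07 in the tumors, against 8.67, 9.49 and 9.56 in the livers, and its difference of -1.60 (adjusted p = 0.0018) was -0.75 without tumor B_12. Aldh1b1, a mitochondrial aldehyde dehydrogenase, was the periportal member that rose, 4.19-fold. Members of both zones were therefore below the livers in the same tumors, and the difference between the zones was not tested.

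Cytochrome P450 genes were lower for 19 of 36 members and higher for 2, with a median of -0.96, beside 10.2% of all genes lower. The probes of near-identical genes in this family may share signal, so single members carry that doubt. Cyp2c50 and Cyp2c37 had 12.51, 11.03 and 9.62, and 12.82, 11.48 and 9.88, in tumors A_04, A_08 and B_12, against 13.59 to 13.94 and 13.83 to 14.07 in the livers. They were 6.62- and 5.99-fold lower, and in both the order of the tumors was the same. Conjugating enzymes of phase II were lower for 17 of 33 members and higher for 3, with a median of -0.65. Inmt, an N-methyltransferase, was 2.95-fold lower and Ugt3a2, a sugar transferase of the UGT family, 1.89-fold lower. Nr1i3, the nuclear receptor CAR that controls many P450 genes, was 3.19-fold lower with 7.75, 7.63 and 6.07 in the tumors, against 8.61, 8.71 and 9.18 in the livers.

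Bile acid genes were lower for 10 of 19 members and higher for none, with a median of -0.86, beside 10.2% of all genes lower. Cyp7b1, an enzyme of the alternative route of bile acid synthesis, had 11.23, 9.29 and 9.09 in tumors A_04, A_08 and B_12, against 12.47, 12.86 and 13.15 in the livers (7.94-fold lower). Cyp8b1, which sets the amount of cholic acid, had 12.08, 11.64 and 9.69 in the tumors, against 12.77, 13.19 and 13.60 in the livers. Its difference of -2.04 was -1.32 without tumor B_12, and it passed in both cases. Cyp27a1, the sterol 27-hydroxylase, was 3.18-fold lower. Slc27a5, which activates bile acids for conjugation, was 2.16-fold lower, and its 3 tumor values lay within 11.54 to 11.71. Slc10a1 and Slco1b2, which take bile acids up from the blood, were 4.13- and 5.76-fold lower. Hepatocyte transporters as a list had 7 of 13 members lower and none higher, with a median of -0.72.

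Sex-biased liver genes moved in opposite directions although all the mice were male. Of 15 male-biased genes, which follow the pulsatile growth hormone of males, 8 were lower and none higher, with a median of -1.41 (-1.26 with 2 genes at their bounds). Of 7 female-biased genes, 4 were higher and none lower, with a median of 1.48 (1.83 with 1 gene at its bound and 1 gene above background in neither group left out), and 2 were higher without tumor A_08. Hsd3b5, a steroid reductase of male liver, had 10.86, 7.47 and 7.50 in tumors A_04, A_08 and B_12, against 11.61, 12.30 and 12.80 in the livers (12.1-fold lower, adjusted p = 0.000154). Elovl3, a fatty acid elongase of male liver, was 8.27-fold lower, with 7.18, 5.50 and 4.76 in the tumors against 8.07 to 9.56 in the livers. Cyp4a12b and Cyp4a12a, the male ω-hydroxylases of fatty acids, were 9.25- and 7.58-fold lower, and Cyp2d9, a male testosterone hydroxylase, was 2.66-fold lower. On the female side, Cyp2b9 had 10.37, 11.60 and 11.57 in the tumors, against 7.14, 8.15 and 8.33 in the livers (9.55-fold higher). Abcd2, a peroxisomal transporter of fatty acids, had 7.68, 8.49 and 8.78 in the tumors, against 5.12, 5.43 and 5.77 in the livers (7.27-fold higher). Tumor A_04 was again the nearest to the livers for Hsd3b5, Elovl3, Cyp2b9 and Abcd2. Of 14 genes of growth hormone and IGF signaling, 4 were lower and 1 higher, with 1 lower without tumor B_12. Over all genes, 12.1% were higher and 10.2% lower. Igfals, the growth hormone-dependent subunit that holds IGF in the circulation, was 3.48-fold lower, with 10.27, 8.43 and 9.46 in the tumors against 10.91 to 11.60 in the livers.

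**Figure D2:**
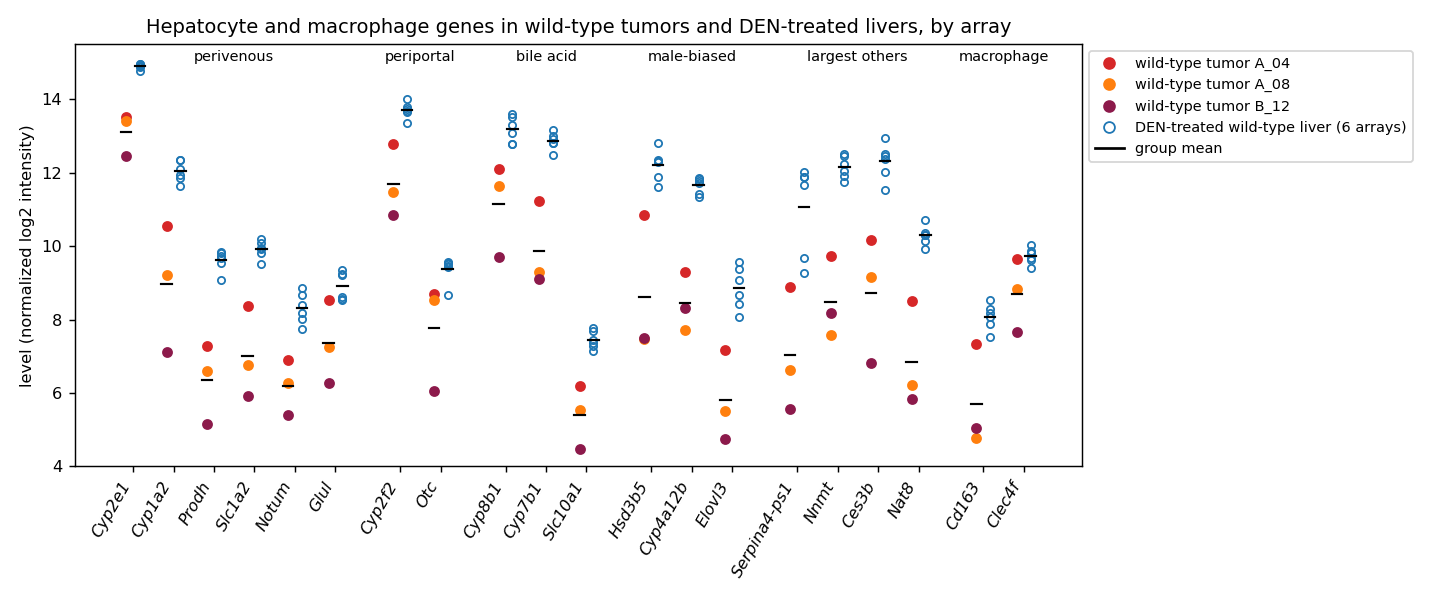
Level (normalized log2 intensity) of 20 genes in each wild-type tumor (filled points, left) and each DEN-treated wild-type liver (open points, right), with the mean of each group as a line. Tumor B_12 is the lowest and A_04 the highest of the tumors for Cyp2e1, Cyp1a2, Prodh and Slc1a2, and Glul, Otc and Clec4f are the genes drawn for which a tumor reaches the range of the livers.

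Enzymes between squalene and cholesterol were among the genes that rose. Of 18 cholesterol synthesis genes measured, enzymes and regulators, 11 were higher and none lower, with a median of 0.96, beside 12.1% of all genes higher. The number higher was 7 without tumor A_04 or without tumor A_08. Sqle, which starts the sterol branch, had 11.58, 11.99 and 12.11 in tumors A_04, A_08 and B_12, against 8.96, 9.77 and 9.87 in the livers (4.76-fold, adjusted p = 9.69e-05). Lss, the next enzyme, was 3.36-fold higher, and Cyp51, which removes a methyl group of lanosterol, had 11.09, 11.34 and 11.15 in the tumors, against 9.16, 9.71 and 10.12 in the livers (2.79-fold). Dhcr7, the last enzyme, was 2.95-fold higher, and Msmo1 and Nsdhl, which act between them, were 2.21- and 2.06-fold higher. No tumor overlapped a liver for these 6 genes. Letters of the sterol regulatory element (TCACNCCAC, both strands) were in the window of 1 of 15 members, Hmgcs1, against 1.39% of the tested genes.

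Fatty acid synthesis was split, with 6 of 16 members higher and 2 lower and a median of 0.25. Lpl, the lipase that takes fatty acids from lipoproteins and that normal adult liver makes little of, had 12.88, 13.07 and 13.26 in the tumors, against 9.42, 9.85 and 10.73 in the livers (9.03-fold, adjusted p = 1.78e-06). Of 17 genes of lipid uptake and lipid droplets, 4 were higher and 3 lower, with 2 higher without tumor B_12. Genes of fatty acid oxidation were lower for 3 of 17 and gluconeogenic genes for 4 of 10, with none higher in either list, and 1 of 16 glycolytic genes was higher. Beside these counts, 12.1% of all genes were higher and 10.2% lower.

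The list of Kupffer cell and macrophage markers and the list of lipid-associated macrophage markers behaved differently. Of 17 markers of Kupffer cells and macrophages, 6 were lower and none higher, with a median of 0.04, beside 10.2% of all genes lower. The lower ones were Cd163, Clec4f, Folr2, Marco, Timd4 and Vsig4, and the count was 3 without tumor A_08 and 2 without tumor B_12. The other 11 members, other Kupffer cell markers among them, did not pass, and 9 of the 17 differences were positive. Cd163, a scavenger receptor for hemoglobin, had 7.34, 4.77 and 5.04 in tumors A_04, A_08 and B_12, against 7.53, 8.11 and 8.54 in the livers, and only A_04 was above background among the tumors, so the measured difference of -2.36 includes values at background. Timd4, a receptor for dying cells, was 2.20-fold lower. Clec4f, the lectin found on mouse Kupffer cells, had 9.64, 8.82 and 7.66 in the tumors, against 9.40, 9.75 and 10.03 in the livers. Its difference of -1.03 had an adjusted p of 0.0251, which was 0.0544 without tumor A_08, and without tumor B_12 the difference was -0.51 (adjusted p = 0.309). The median of this marker list relative to the liver mean was 0.15, 0.06 and -0.49 in the 3 tumors, against -0.38 to 0.44 in the 6 livers.

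Of 8 markers of lipid-associated macrophages, 7 were higher and none lower, with a median of 2.21, against 12.1% of all genes called higher. A marker dim in liver can meet the detection rule through tumors alone, so this share may partly follow from that rule. Mmp12, an elastase of macrophages, had 7.38, 8.68 and 7.89 in tumors A_04, A_08 and B_12, against 4.63, 5.27 and 5.81 in the livers (6.60-fold). Gpnmb, a lysosomal glycoprotein, had 6.38, 8.67 and 8.40 in the tumors, against 4.84, 5.35 and 6.04 in the livers (5.31-fold). Cd9, a tetraspanin, and Lgals3, a galectin, were 3.87- and 3.16-fold higher. Lpl and Cd63 stand on the list too, and other cells, hepatocytes among them, can express several of these genes, so the source of the RNA was not tested. The list median relative to the liver mean was 1.28, 2.66 and 2.82 in the 3 tumors, against -0.25 to 0.28 in the livers.

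Of 11 markers of vascular and capillary endothelium, 6 were higher and none lower, with a median of 0.86, beside 12.1% of all genes higher. Esm1, a proteoglycan of sprouting vessels, had 10.51, 9.84 and 11.05 in tumors A_04, A_08 and B_12, against 7.01, 7.51 and 8.14 in the livers (7.70-fold, adjusted p = 0.00397). Emcn, a sialomucin of capillaries and veins, had 8.54, 8.35 and 8.49 in the tumors, against 6.87, 6.92 and 7.09 in the livers (2.83-fold). Esam, a junction protein, was 1.86-fold higher. The list median relative to the liver mean was 0.78, 0.68 and 0.87 in the 3 tumors, against -0.06 to 0.08 in the livers. Of 17 markers of sinusoidal endothelium, 6 were higher and 1 lower, with a median of 0.41, and Pecam1, the pan-endothelial adhesion molecule, was 1.98-fold higher. The median of the sinusoidal list relative to the liver mean was 0.62, 0.53 and 0.17 in tumors A_04, A_08 and B_12, against -0.20 to 0.30 in the livers, so the groups overlapped.

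Collagens and other matrix genes were higher for 11 of 24 members and lower for none, with a median of 0.66 (0.50 with 3 genes at their bounds and 1 gene above background in neither group left out), and 7 were higher without tumor B_12. Col4a1 and Col4a2, the paired chains of basement membrane collagen, were the clearest. Col4a1 had 9.99 to 10.76 in the tumors, against 7.82, 7.88 and 8.03 in the livers (5.12-fold, adjusted p = 2.75e-06), and Col4a2 was 4.21-fold higher. Sparc, a collagen-binding matrix protein, was 3.36-fold higher. Of 11 markers of stellate cells and fibroblasts, 1 was higher and 1 lower, with a median of -0.34. These counts lie near the shares of all genes, 12.1% higher and 10.2% lower, and do not show that the list was unchanged. The higher one was Acta2, smooth muscle actin, a marker of activated stellate cells, with a difference of 2.69. Other probes of Acta2 differed by 2.01, 0.33 and 0.07. The median of the stellate cell and fibroblast list relative to the liver mean was -0.17, -0.02 and -0.27 in the tumors, against -0.12 to 0.09 in the livers.

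Output genes of MAPK signaling and immediate-early genes were higher for 7 of 14 members and lower for 1, with a median of 0.90. Without tumor B_12, 4 were higher, and the share of all genes called higher in the full model was 12.1%. Egr1, an immediate-early transcription factor, had 13.30, 13.61 and 13.40 in tumors A_04, A_08 and B_12, against 9.56, 10.63 and 11.18 in the livers (7.42-fold, adjusted p = 0.00775). Junb, a subunit of AP-1, was 3.14-fold higher, and Dusp6, the ERK phosphatase that ERK itself induces, had 11.70, 11.19 and 11.83 in the tumors, against 10.15, 10.45 and 10.67 in the livers (2.20-fold).

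Several immune lists had members that were higher, with differences between the tumors. Cytokine, adhesion and NF-κB genes were higher for 9 of 18 members and lower for 1, with a median of 1.02, beside 12.1% of all genes higher. Vcam1, an adhesion molecule for leukocytes, had 8.96, 9.38 and 9.97 in tumors A_04, A_08 and B_12, against 7.50, 7.79 and 8.45 in the livers (2.90-fold). Cxcl10, an interferon-induced chemokine, and Relb, a subunit of NF-κB, were detected in all 3 tumors and in no DEN-treated liver, and were at least 2.25- and 1.26-fold higher. Type I interferon genes were higher for 10 of 25 members, but for 4 without tumor A_04, whose list median relative to the liver mean was 1.34, against 0.10 in A_08, 0.15 in B_12 and -0.29 to 0.17 in the livers. Cmpk2, a mitochondrial nucleotide kinase that interferon induces, had 9.78, 8.25 and 8.88 in the tumors, against 7.04 to 7.90 in the livers (2.66-fold), and Ifit2, an interferon-induced antiviral protein, was 2.98-fold higher. MHC class II genes were higher for 5 of 9 members, for 1 without tumor A_08 and for 3 without tumor B_12. H2-Ab1, a class II chain, had 9.64, 11.36 and 10.56 in the tumors, against 8.59, 9.17 and 10.07 in the livers, and its adjusted p of 0.00421 was 0.0653 without tumor A_08. MHC class I genes were higher for 5 of 15 members, but for 1 without tumor B_12, 2 without tumor A_08 and 3 without liver A_02, A_03 or B_11. Of 6 markers of T and NK cells, 1 was higher and none lower, with a median of 0.27, and 0 of 4 markers of B and plasma cells passed in either direction. Beside 12.1% of all genes higher and 10.2% lower, counts from such small lists do not show that these markers were unchanged.

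Structural and secreted proteins changed as well, and their counts stand beside 12.1% of all genes higher and 10.2% lower. Annexins and S100 proteins were higher for 7 of 10 members and lower for 1, with a median of 0.75, and for 4 without tumor A_08 or B_12. Anxa2, which links membranes to actin, had 12.51, 12.74 and 13.08 in the tumors, against 10.03, 10.32 and 10.82 in the livers (5.25-fold), and Anxa5, which binds phosphatidylserine, was 2.64-fold higher. Tubulins were higher for 6 of 9 members, but for 2 without tumor B_12, and Tubb6 was 4.19-fold higher. Of 22 acute-phase genes, 7 were higher and 6 lower, with 3 higher without B_12 and 3 lower without A_08 or B_12. Apcs, serum amyloid P, and Cp, ceruloplasmin, were 3.12- and 2.15-fold higher, whereas Saa3, a serum amyloid A protein, was 3.43-fold lower with 6.83, 6.65 and 6.21 in the tumors against 7.77, 8.25 and 9.31 in the livers.

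General hepatocyte markers had no common direction. Of 16 hepatocyte markers, 3 were higher and 3 lower, beside 12.1% of all genes higher and 10.2% lower. The list median relative to the liver mean was 0.06, 0.02 and -0.09 in the 3 tumors, against -0.14 to 0.14 in the livers. Alb, albumin, had 11.56, 11.79 and 11.61 in the tumors, against 10.04, 10.20 and 10.58 in the livers (2.71-fold higher, adjusted p = 0.000249). Of 17 hepatocyte nuclear factors and receptors, 1 was higher and 4 lower, and the lower count was 1 without tumor B_12 and 2 without tumor A_08, liver C_18 or liver C_19. Foxa3, the winged-helix factor that rose, was 2.08-fold higher, with 12.67, 12.62 and 12.22 in the tumors against 11.18 to 11.88 in the livers. Nfe2, an erythroid transcription factor, was 3.33-fold higher, with 7.89, 8.12 and 7.11 in the tumors against 5.43 to 6.39 in the livers, while the erythroid markers had 1 of 3 lower and none higher.

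Nuclear-encoded genes of oxidative phosphorylation were lower for 24 of 72 members and higher for 1, with a small median of -0.29. Over all genes, 10.2% were lower and 12.1% higher. Sdhb, the iron-sulfur subunit of succinate dehydrogenase, had 9.42, 9.76 and 9.94 in the tumors, against 10.38, 10.76 and 10.94 in the livers (1.97-fold lower), and Ndufb3, a subunit of complex I, was 1.69-fold lower with no overlap. Mitochondrial ribosomal proteins were lower for 13 of 67 members and higher for 3, and lower for 5 without tumor B_12. Cytosolic ribosomal proteins were higher for 11 of 56 members and lower for none, with a median of 0.28, and for 6 without tumor A_08 and 7 without liver A_02 or B_11. Rps12, a protein of the small subunit, was 1.61-fold higher.

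Several other lists had few calls beside the background shares of 12.1% higher and 10.2% lower. In these, 0 of 12 circadian clock genes passed, 1 of 39 translation factors, 2 of 21 ribosome biogenesis genes, 4 of 34 proteasome subunits, 3 of 20 apoptosis genes and 1 of 13 NRF2 targets. Apolipoproteins, by contrast, had 4 of 13 members higher, a larger share than 12.1%, and 2 without tumor B_12 or liver C_19. Complement and coagulation genes had 2 of 27 higher and 6 lower, and the lower share was above 10.2%. A count near the background does not show that a list was unchanged.

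**Figure D3:**
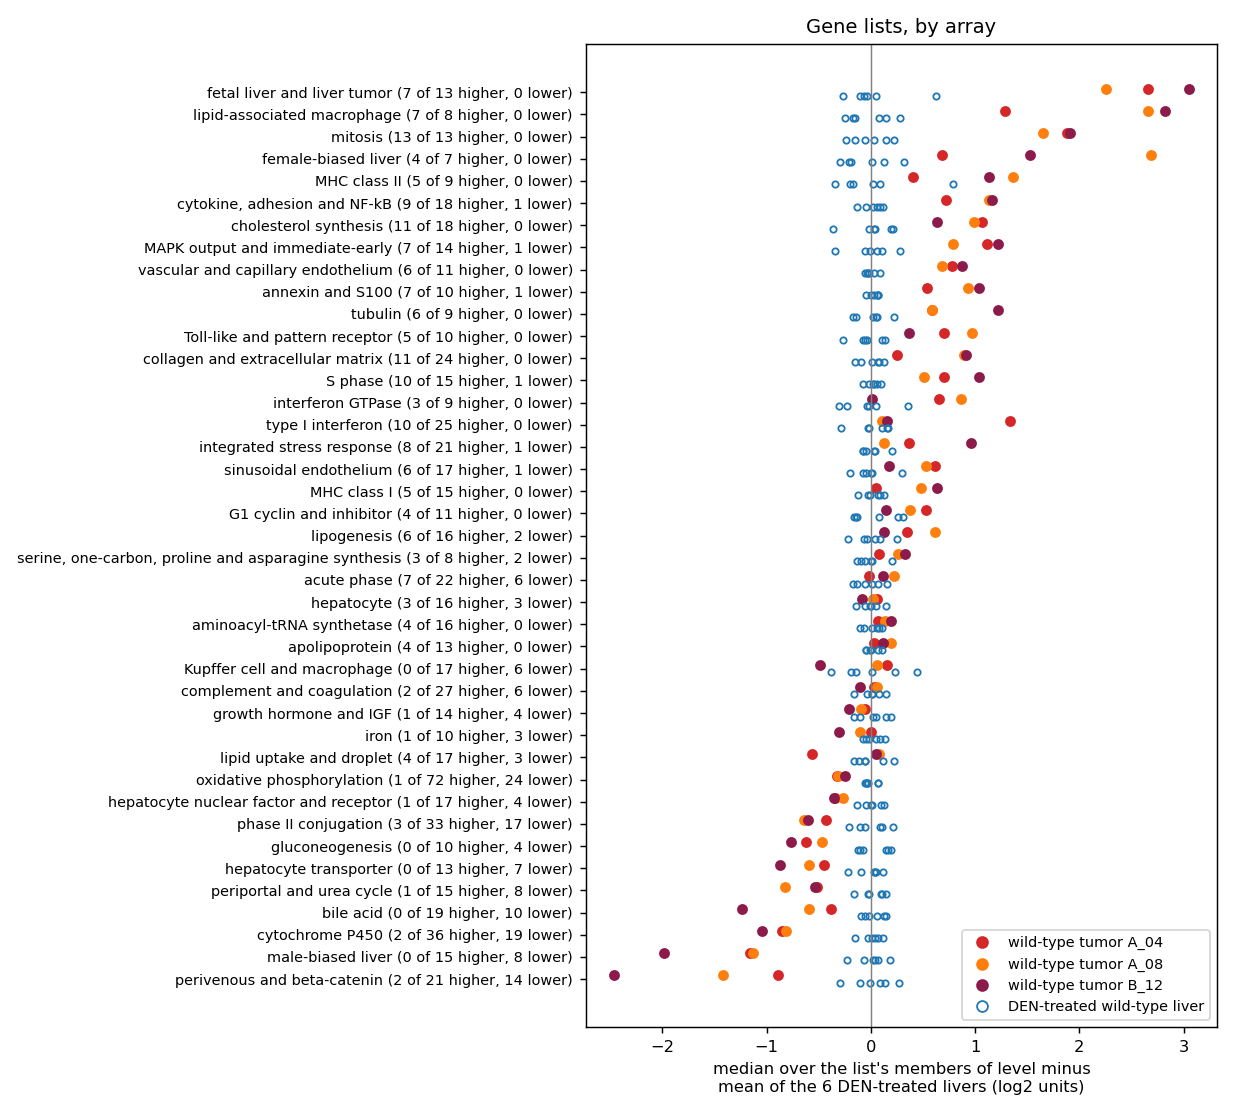
Median over the members of each gene list of the level minus the mean of the 6 DEN-treated wild-type livers (log2 units), for each wild-type tumor (filled, upper) and each liver (open, lower), for the 41 lists with at least 7 genes tested and at least 25% of them called. The fetal liver and liver tumor, mitosis and lipid-associated macrophage lists lie above every liver in all 3 tumors and the perivenous list lies below every liver in all 3, whereas the type I interferon list stands out in A_04 alone.

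The tumors of Chop-/- mice were set against DEN-treated Chop-/- livers in the same model, with no sample shared with the wild-type contrast. Of the 1086 genes higher in wild-type tumors, 985 (90.7%) had the same sign there, 737 (67.9%) were called higher and 7 were called lower, while 19.1% of all genes tested were called higher in that contrast. Of the 917 genes lower in wild-type tumors, 872 (95.1%) had the same sign, 707 (77.1%) were called lower and 2 were called higher, while 20.3% of all genes were called lower. Without the Chop-/- liver B_15, 785 (72.3%) and 720 (78.5%) were called in the same direction.

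The difference between the genotypes itself passed for 421 genes, 147 (1.64%) with a more positive and 274 (3.05%) with a more negative difference in Chop-/- mice. With 2 Chop-/- tumors this count rested on single arrays: it was 51 without Chop-/- tumor C_24 and 1705 without Chop-/- tumor B_16, and 35 of the 421 genes passed in both fits. It was 233, 170 and 807 without wild-type tumors A_04, A_08 and B_12, and 548 without Chop-/- liver B_15. Cyp2e1 differed by -1.79 in wild-type and -5.95 in Chop-/- mice (adjusted p = 1.29e-08 for the difference between the genotypes). Slco2b1, an organic anion transporter, differed by -1.44 in wild-type and -4.80 in Chop-/- mice, Ugt3a2 by -0.92 and -3.77, and Pon1, a serum esterase of hepatocyte origin, by -1.53 and -5.86. The wild-type difference of Pon1 was -0.68 without tumor B_12. Serpina6, which encodes corticosteroid-binding globulin, had opposite signs: it was 3.44-fold higher in wild-type tumors, with 12.69, 13.65 and 11.36 against 10.40 to 11.10 in the livers, whereas its difference in Chop-/- mice was -2.08 (adjusted p = 4.48e-05 for the difference between the genotypes). Fgf21 had a difference of 3.43 in wild-type and -0.10 in Chop-/- mice, and the difference between the genotypes did not pass (adjusted p = 0.0745).

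**Figure D4:**
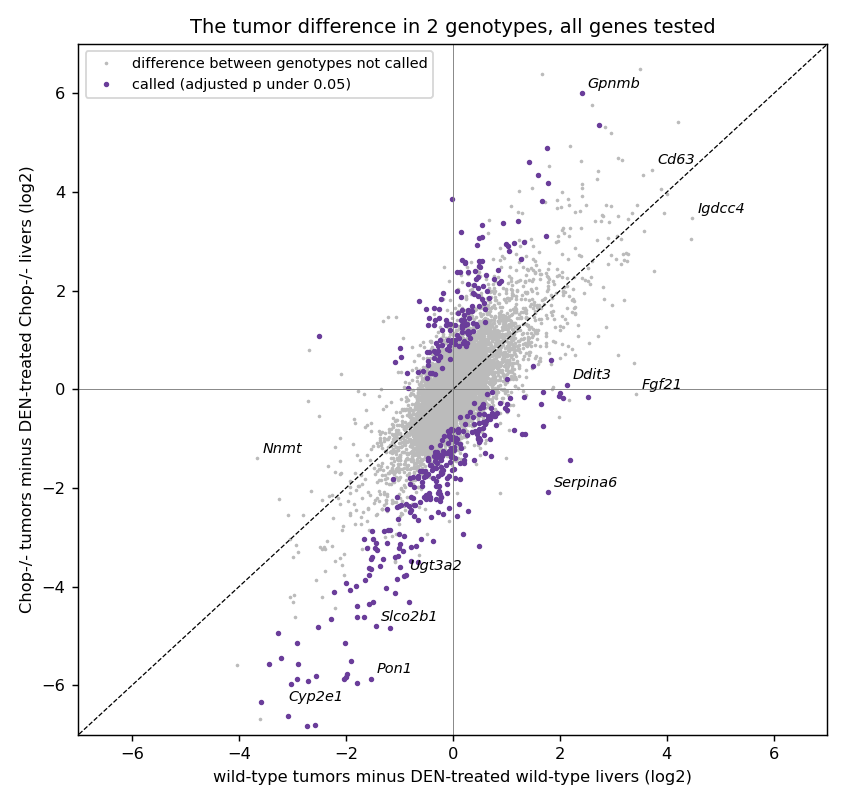
Difference between tumors and DEN-treated livers (log2) in wild-type mice (horizontal axis) and in Chop-/- mice (vertical axis) for all 8969 genes tested, with equality as a dashed line. Purple points mark the 421 genes for which the 2 differences differed at an adjusted p under 0.05; Cyp2e1, Pon1 and Slco2b1 lie far below the line, and Serpina6 lies on opposite sides of 0.

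Part of the distance of tumor B_12 lay along 2 chromosomes. Among genes with a mean level above 6, the median difference from the DEN-treated livers was 0.39 over 265 genes of chromosome 15 in B_12, of which 76.2% were above the liver mean, against 0.03 in A_04 and -0.01 in A_08. On chromosome 14 the median over 209 genes was -0.32 in B_12, against 0.02 in A_04 and -0.10 in A_08. The other chromosomes had medians of -0.16 to 0.03 in B_12. Of the 374 tested genes of chromosome 15, 65 (17.4%) were called higher, and B_12 was the highest tumor for 54 of them, among them Ly6d and Sqle. Of the 311 tested genes of chromosome 14, 50 (16.1%) were called lower, beside 10.2% of all genes. B_12 was the lowest tumor for 37 of the 50, and for 62.2% of all genes called lower. DNA copy number was not measured.

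**Figure D5:**
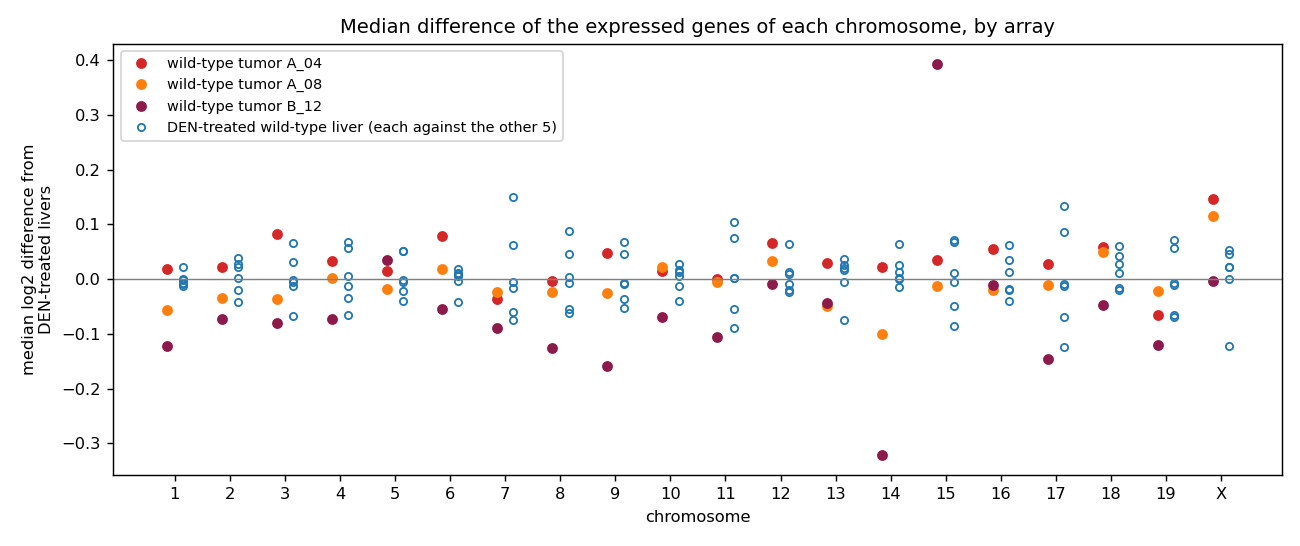
Median difference from the DEN-treated wild-type livers (log2) over the expressed genes of each chromosome, for each wild-type tumor (filled, left) and for each DEN-treated liver against the other 5 (open, right). Tumor B_12 stands apart at chromosome 15 (0.39) and chromosome 14 (-0.32), while A_04 and A_08 lie within -0.10 to 0.15 on every chromosome drawn.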

How the data were processed

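RNA of each liver or tumor was hybridized to Illumina MouseRef-8 arrays, scanned, and read with GenomeStudio 2011.1 according to the submitters' processing notes. The deposited intensities are bead averages on a linear scale that had been background subtracted and brought to a common distribution before deposit, with 26.9% of them below 0. The deposited detection p-values compare each probe with the negative control beads of its array. The authors also deposited normalized log2 values of the same arrays, which served as an alternative. The intensity columns carry array names only, and their groups were taken from the header of a supplementary table of the study. Checked by rank over all probes, each of the 24 arrays matched 1 sample of the labelled log2 values (Spearman's rho of 1, at most 0.905 with any other sample), and its label gave the same group for all 24. In addition, 48 columns were not used.

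Intensities were processed with neqc of limma 3.58.1 in R 4.3.3 (normal-exponential background correction, quantile normalization, offset 16, log2). Probes with a detection p under 0.01 on at least 2 arrays were kept (12707 of 25697). A gene above background in tumors alone could meet this rule, which can raise the share of higher members in lists of genes dim in liver. A gene was represented by its brightest kept probe. Of all probes, 23978 had 1 gene symbol and 1719 had none, and symbols were updated through the gene ID for 23962. One model of 6 groups was fitted to 24 arrays with moderated variances and Benjamini-Hochberg adjustment over 8969 genes, and the fit was tested on simulated data. The named genes are the 15 largest differences without overlap in each direction, up to 6 members of each list by smallest p, all measured fetal liver and liver tumor genes, 5 genes the study names for tumors, and the 5 smallest p-values for the difference between genotypes. From these, a selection is described. The exact permutation test of 3 against 6 arrays cannot go below p = 0.0238 (two-sided, 84 splits). Members and lists (63 lists, 1036 of 1327 symbols tested) were chosen with earlier results of these data known. Alternatives changed the values, filter, probe rule, model, weights, blocks and arrays, and leaving out Chop-/- liver B_15 was chosen after seeing the data. Promoter windows and gene names came from RefSeq tables (GRCm38.p6). The number of arrays limits the precision.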

Additional observations from a re-analysis of the deposited data

Results flagged for a closer look

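Of the 130 genes described, 10 had a single DEN-treated wild-type liver that stood apart from the other 5, where about 1 in 20 (6.5 genes) would be set apart by chance. Array C_18 was the highest liver for Afp (7.04) and the lowest for Akr1b8 (4.66), Anxa5 (10.61) and Ugt3a2 (12.37). Array B_10 was the lowest for Nupr1 (5.45) and the highest for Pon1 (14.21). Array B_11 was the highest for Mfsd2a (11.14) and the lowest for Sqle (8.96). Array C_19 was the lowest for Otc (8.67), within the range of the tumors, and array A_02 was the highest for Alb (10.58).

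For 32 of these genes the difference between tumors and DEN-treated livers was not the same in Chop-/- as in wild-type mice by the test of that difference in limma. Over all 8969 genes, 1.64% passed with a more positive and 3.05% with a more negative difference. Genes were named partly for a small p in this test or a large wild-type difference, so the number 32 partly follows from that choice. The values below are the Chop-/- minus the wild-type difference on the log2 scale. It was positive for 5 genes, namely Gpnmb (3.59), Mmp12 (2.64), Lgals3 (2.15), Sparc (1.36) and Cd24a (1.13). It was negative for 27 genes. Among P450 genes it was -4.22 for Cyp2c37, -4.16 for Cyp2e1, -4.09 for Cyp2c50, -3.84 for Cyp8b1, -3.83 for Cyp2f2, -3.54 for Cyp1a2, -2.94 for Cyp4a12a, -2.23 for Cyp4a12b and -1.37 for Cyp27a1. Among transporters and bile acid enzymes it was -3.36 for Slco2b1, -2.67 for Slc1a2, -2.28 for Slco1b2 and -0.70 for Slc27a5. Among other enzymes it was -2.93 for Sult2a8, -2.85 for Ugt3a2, -2.79 for Inmt, -2.76 for Ces3b, -2.19 for Glul, -2.12 for Nat8, -1.90 for Rgn and -1.66 for Prodh. Among secreted proteins it was -4.33 for Pon1, -3.87 for Serpina6 and -2.60 for Igfals, and it was -2.35 for Clec4f, -2.03 for Ddit3, which the Chop-/- mice lack, and -1.02 for Mcm5. Of these 32 genes, 28 passed without Chop-/- tumor B_16, 14 without Chop-/- tumor C_24 and 13 in both cases. All 32 passed without Chop-/- liver B_15, and 9 more of the genes described passed only then, namely Afp (4.06, adjusted p = 0.000955), Ly6d (3.52, adjusted p = 0.0272), Esm1 (2.76), Cd9 (1.96), Tubb6 (1.40), Emcn (1.07), Sp5 (-1.08), Notum (-1.39) and Hsd3b5 (-3.15).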

How the results depend on the processing

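The number of arrays limits the precision, and dim genes have only a bound in the group that lies at background. The counts of genes higher and lower stayed within 1.5 times of the 1086 and 917 of the model above with the authors' log2 values (1118 and 928), log2 of the deposited signal plus 16 (1061 and 914), no filter (1033 and 827), only the arrays of the compared groups (1021 and 818) and the array set as a block (1066 and 926). With array weights they were 1665 and 1433, and 193 genes differed between the genotypes in place of 421. With the array set as a block, that number was 230. Leaving out 1 array gave 777 (without tumor B_12) to 1105 genes higher (without Chop-/- liver B_15), 586 to 927 genes lower in the same fits and 51 to 1705 genes between the genotypes. Without B_12, 1227 of the 2003 calls were kept. Samples of the same number did not deviate together (r = -0.147, 0.076 and -0.04). The labels do not say whether a shared number means a shared animal, and these few correlations cannot settle it. The replicate block, which needs the authors' values, gave 389 genes higher and 290 lower, against 1035 and 853 without it on the same 9 arrays, and kept 630 of the 2003 calls. With only the 9 arrays, Afp and Hspa5 passed (adjusted p = 1.44e-05 and 0.012). With the mean of a gene's probes, Nsdhl did not pass (adjusted p = 0.19). Small medians changed sign: translation factors to -0.0087 (mean of probes) and -0.0077 (replicate block), YAP targets to -0.0086 (array weights), and hepatocyte markers to -0.0087 (replicate block), -0.0143 (without A_04, the lowest of a range to 0.1335 over the arrays left out) and -0.1529 (set B). Within set B, interferon GTPases had -0.0113 and lipogenesis -0.0912, and within set A the adipocyte marker had 0.0698. Igf2 had -0.0657 without A_04 and 1.422 without B_12, and Bex1 -0.0172 and 0.2569. The cause of these changes was not tested.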

Other observations

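The chromosome 15 shift of tumor B_12 ran along the whole chromosome, with medians of 0.41, 0.34, 0.41 and 0.45 in 4 successive blocks of its expressed genes. The chromosome 14 shift was uneven: the 4 blocks had medians of -0.15, -0.02, -0.29 and -0.60. Against the DEN-treated wild-type livers, Chop-/- tumor B_16 had a median of -0.31 over chromosome 6 and of -0.08 to 0.13 over the other chromosomes. Chop-/- tumor C_24 had its lowest median, -0.27, over chromosome 8. The genotype differs in these values. Against the DEN-treated Chop-/- livers, the 4 blocks of chromosome 6 had -0.20, -0.28, -0.31 and -0.38 in B_16. Those of chromosome 8 had -0.13, -0.06, -0.47 and -0.51 in C_24.

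In Chop-/- mice, 50 of the 56 measured cytosolic ribosomal protein genes were higher in tumors than in DEN-treated livers, with a median of 0.85, where 19.1% of all genes were called higher. In wild-type mice 11 of the 56 were higher, with a median of 0.28, where 12.1% of all genes were. The test of the difference between the genotypes passed for 15 of them, all more positive in Chop-/- mice, where 1.64% of all genes passed in that direction. Of the 17 sinusoidal endothelial markers, 8 were lower and 3 higher in Chop-/- tumors, where 20.3% of all genes were called lower. The difference between the genotypes passed for 8 markers, all more negative in Chop-/- mice, where 3.05% of all genes passed in that direction. These calls between genotypes rest on 2 Chop-/- tumors, and over all genes 51 passed without C_24 and 1705 without B_16.

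The DEN-treated Chop-/- liver B_15 had a median level 3.33 above the mean of the other 6 livers of its group over the 13 fetal liver and liver tumor genes. Over the genes higher in wild-type tumors its median was 0.43 above, and over the genes lower in wild-type tumors its median was -0.29. It was kept in the model with the group it was assigned to.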
